A study of Mus musculus with 2 samples.

Results

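The M-band and myosin-binding protein genes studied here are Myom1, Myom2, Myom3, Mybpc1, Mybpc2, Mybpc3 and Mybph, 7 of the 21951 protein-coding genes of the annotation. They were chosen by name as the genes of 2 small families, and every open site at their loci was taken from the deposited peak lists. Open chromatin in the gastrocnemius, a muscle of the calf, was profiled by DNase-seq, in which DNase I cuts DNA that is not covered by nucleosomes or other proteins. The only group was 2 biological replicates from females of B6CASTF1/J, a first-generation hybrid of the C57BL/6J and CAST strains, 14 days old and with no treatment named. The sample notes give 3 females per biosample, so each library may pool animals, and both biosamples carry the same donor record. Sequencing instruments are named for replicate 2 (2 of them) and not for replicate 1, so that instrument and replicate cannot be told apart.

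The sarcomere is the contractile unit of striated muscle, and its thick filaments of myosin are held in register at its middle by the M-band. Myomesins are the elastic crosslinkers of the M-band: myomesin 1 (Myom1) is found in all striated muscle, M-protein (Myom2) mainly in fast fibres and heart, and myomesin 3 (Myom3) in a subset of skeletal fibres. Myosin-binding proteins C sit in stripes along the thick filament and modulate the myosin heads; Mybpc1 encodes the slow skeletal form, Mybpc2 the fast skeletal form and Mybpc3 the cardiac form, while Mybph encodes the shorter myosin-binding protein H. In cultured and embryonic muscle, genes of the sarcomere are switched on by MyoD and myogenin, which bind E-boxes such as CAGCTG, together with MEF2 and serum response factor.

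The 7 genes lie on 7 chromosomes (coordinates on mm10, exon counts of the longest coding transcript). The myomesin genes are Myom1 (ENSMUSG00000024049, chr17:71002633-71126856, plus strand, 38 exons), Myom2 (ENSMUSG00000031461, chr8:15057653-15133541, plus strand, 37 exons) and Myom3 (ENSMUSG00000037139, chr4:135759715-135815564, plus strand, 37 exons). Of the myosin-binding protein genes, Mybpc1 (ENSMUSG00000020061, chr10:88518279-88605152, 29 exons) and Mybpc2 (ENSMUSG00000038670, chr7:44501699-44524656, 28 exons) are on the minus strand. Mybpc3 (ENSMUSG00000002100, chr2:91118144-91136516, 35 exons) and Mybph (ENSMUSG00000042451, chr1:134193448-134201232, 10 exons) are on the plus strand.

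The sequences that carry the results below are shown first. All are from the reference genome of the build GRCm38 (mm10), 5′ to 3′ on the strand named, and capitals mark exact matches to the motifs named, on either strand. The start of the full-length Myom1 transcripts is preceded by this weakly open stretch (chr17:71019398-71019520, plus strand), in which the capitals mark a CArG box, the recognition sequence of serum response factor:
Myom1 full-length start: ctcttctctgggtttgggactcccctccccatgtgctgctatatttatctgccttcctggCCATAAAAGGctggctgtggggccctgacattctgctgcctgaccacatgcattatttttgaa

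The middle of the strongest site counted for Myom1 lies between starts of Myl12a and of a short Myom1 transcript (chr17:71002555-71002632, plus strand), and its capitals mark a CACGTG E-box and a GC box of SP and KLF factors (CCGCCC, the reverse complement of GGGCGG):
Myom1 and Myl12a starts: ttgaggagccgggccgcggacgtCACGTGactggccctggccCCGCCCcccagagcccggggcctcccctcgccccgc

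At the starts of the skeletal myosin-binding protein genes, the capitals mark a TATA box and a CAGCTG E-box for Mybpc1 (chr10:88605028-88605057, minus strand). For Mybpc2 (chr7:44524657-44524840, minus strand) they mark CAGGTG, the reverse complement of the CACCTG E-box, then the TEAD sequence GGAATG and the GC box GGGCGG. For Mybph (chr1:134193148-134193447, plus strand) they mark CAGCTG directly followed by GGAATG, and TTTATA, the reverse complement of TATAAA:
Mybpc1 start: TATAAAaccggtccacctctaagCAGCTGc
Mybpc2 start: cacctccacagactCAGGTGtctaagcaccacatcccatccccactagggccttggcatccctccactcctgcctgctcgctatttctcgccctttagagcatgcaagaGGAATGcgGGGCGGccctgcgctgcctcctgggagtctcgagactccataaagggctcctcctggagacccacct
Mybph start: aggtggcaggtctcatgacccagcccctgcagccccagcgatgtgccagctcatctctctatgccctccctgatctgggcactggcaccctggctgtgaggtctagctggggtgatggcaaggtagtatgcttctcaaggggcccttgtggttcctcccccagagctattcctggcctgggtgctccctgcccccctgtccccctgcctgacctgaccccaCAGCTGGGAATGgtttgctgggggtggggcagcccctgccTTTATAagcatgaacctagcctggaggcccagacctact

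Of the sites inside introns, 2 with a pair of E-boxes under footprints of both replicates are shown. Capitals mark a pair of CAGCTG E-boxes in Myom1 (chr17:71038821-71039080, plus strand), and the E-boxes CAGCTG and CACCTG with the TEAD sequence in either orientation (GGAATG or CATTCC) in Mybph (chr1:134196041-134196340, plus strand):
Myom1 intron 5: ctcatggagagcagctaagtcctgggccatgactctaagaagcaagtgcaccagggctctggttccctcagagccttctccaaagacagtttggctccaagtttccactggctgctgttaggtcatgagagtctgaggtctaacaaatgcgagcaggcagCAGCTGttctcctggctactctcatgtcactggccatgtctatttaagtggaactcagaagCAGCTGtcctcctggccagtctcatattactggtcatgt
Mybph intron 3: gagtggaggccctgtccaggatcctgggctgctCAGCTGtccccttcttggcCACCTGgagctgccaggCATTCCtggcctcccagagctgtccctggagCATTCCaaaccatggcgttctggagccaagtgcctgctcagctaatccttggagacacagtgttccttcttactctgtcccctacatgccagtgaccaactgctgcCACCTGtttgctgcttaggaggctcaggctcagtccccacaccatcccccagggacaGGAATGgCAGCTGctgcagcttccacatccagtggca

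The remaining sequences are the 3 CTCF matches among the distal sites, each with 9 bases to either side of the capitals: in an intron of Myom3 (chr4:135801640-135801669, plus strand), upstream of Mybpc2 (chr7:44527660-44527689, minus strand) and upstream of Mybpc3 (chr2:91115247-91115276, plus strand):
Myom3 intron 27: cctgtctagCCACCAGGTGGCgccctggtt
Mybpc2 upstream: gacatctcaCCAGCAGGTGGCgctgtctac
Mybpc3 upstream: gatgacctaCCAGAAGATGGCgcgcgcgct

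Replicate 1 had 87558 strict peaks and replicate 2 had 79562; 68349 sites held a strict peak of each replicate and are called shared. The signal is the authors' value per peak, whose scaling is not stated and whose read depth is unknown; across all shared sites replicate 2 was at 0.906 of replicate 1 (median; log2 -0.14, SD of the log2 ratios 0.30). All 10 skeletal muscle markers tested for the tissue label had a shared promoter site, as had 3 of 10 cardiac, 3 of 4 smooth muscle, 4 of 4 endothelial, 1 of 5 myeloid and 4 of 4 fibroblast markers. Over all protein-coding genes the share with such a site was 62.3%, and the small marker lists were not tested against it. In bulk tissue, a site open in few cells and a site weakly open in many cannot be told apart.

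Promoter sites had their midpoint within 1 kb of a transcription start of a protein-coding transcript. Of the 7 genes, 5 had a shared promoter site (Myom1, Myom2, Mybpc1, Mybpc2 and Mybph), beside 62.3% of all protein-coding genes, so the count sets nothing apart in these genes. Their levels were mostly low. By the strongest promoter peak, Myom1 stood above 97.4% and Mybpc2 above 60.5% of the 13677 genes with a promoter peak in both replicates, whereas Myom2, Mybpc1 and Mybph stood above 18.7%, 15.1% and 12.7%. Myom3 and Mybpc3 had no promoter peak in the strict or the permissive list of either replicate, and no base within 1 kb of their starts had a listed false discovery rate, which the per-base files give only where below 0.05.

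**Figure D1:**
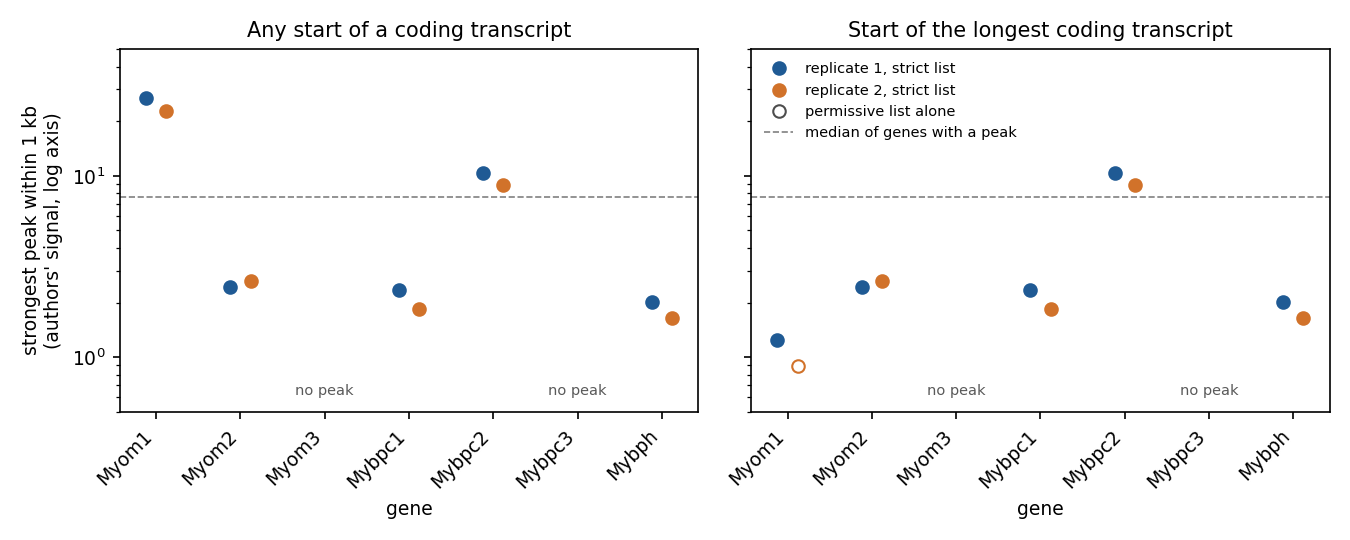
Signal of the strongest peak within 1 kb (log axis, the authors' value) of any coding start (left) and of the start of the longest coding transcript (right), per gene and replicate; open circles are peaks of the permissive list alone and the dashed line is the median of all genes with a peak in both replicates, 7.64. Myom1 is the highest gene in the left panel (27.0 and 23.0) and the lowest with a peak in the right panel (1.25 and 0.897), and the other genes have the same values in both.

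Among the myomesins, the high value of Myom1 belongs to a start it shares with other genes. Its strongest promoter site (chr17:71002481-71002700) reached 27.0 in replicate 1 and 23.0 in replicate 2 (mean 25.0 ± 2.86, SD, n = 2). This site has its midpoint 37 bp from a start of Myl12a, which encodes a regulatory light chain of non-muscle myosin, and 42 bp upstream of the start of a Myom1 transcript with a coding sequence of 701 bp. The full-length Myom1 transcripts, with 5001 bp of coding sequence, start 16.9 kb farther downstream. The site is GC-rich (71.4%), and footprints of both replicates covered its CACGTG, its GC box and an NRF1 match. Of all shared promoter sites, 51.6% held a GC box, 5.88% CACGTG and 6.02% an NRF1 match in their central 150 bp. A TEAD match and the E-box CAGCTG lay at footprint edges, and footprints of both replicates overlapped them only in part. The NRF1 match, the TEAD match and this E-box are not wholly inside the stretch shown. Throughout, a match is said to lie under a footprint where they share at least 1 base. A pair of companion sites counted for Myom1 by the same rule lay at Myl12a and its neighbour Myl12b: chr17:71002161-71002340 had 11.02 and 9.33, and chr17:71001761-71002000 had 3.46 and 3.45, in replicates 1 and 2.

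At the full-length start only a weak site was found. The site chr17:71019398-71019547, centred 48 bp upstream of that start, had a strict peak of 1.25 in replicate 1 alone, and a peak of 0.897 in the permissive list of replicate 2. Its lowest per-base false discovery rate was 7.98e-05 in replicate 1 and 0.00291 in replicate 2. Footprints are short stretches protected from cutting inside an open region, and 1 covered the CArG box shown above in each replicate. A CArG box was held by 1.33% of the 54361 windows of 300 bp at coding starts, and by 0.475% of all shared promoter sites.

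Myom2, which encodes M-protein, had a modest promoter site in both replicates. The site chr8:15056921-15057080 reached 2.42 in replicate 1 and 2.65 in replicate 2 (mean 2.53 ± 0.157, SD, n = 2). It was centred 652 bp upstream of the only coding start, in intergenic DNA, and with a promoter window of 500 bp Myom2 had no promoter site. It held CACCTG at 2 places, both under footprints in replicate 1 alone, with 12.1% of all shared distal and 8.47% of all shared promoter sites holding this E-box within their central 150 bp.

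The genes of the skeletal myosin-binding proteins C differed in their promoters. Mybpc2, the fast form, had 2 shared sites at its start. The nearer (chr7:44524601-44524840, centred 65 bp upstream) had 3.92 and 3.93 in replicates 1 and 2, and the TEAD sequence GGAATG and the GC box lay under footprints of both replicates. The farther (chr7:44525201-44525400, centred 645 bp upstream) was stronger, with 10.4 and 8.91 (mean 9.64 ± 1.04, SD, n = 2), had a GC content of 69.5%, and held a CCAAT box under footprints of both replicates. A GC box was held by 43.1%, GGAATG by 13% and CCAAT by 35.9% of all windows of 300 bp at coding starts. The farther site is outside such a window, and 21.1% of all shared promoter sites held CCAAT in their central 150 bp.

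Mybpc1, the slow form, had 1 site across its 2 upstream starts (chr10:88604961-88605220), with 2.36 in replicate 1 and 1.84 in replicate 2 (mean 2.10 ± 0.371, SD, n = 2). Of all windows at coding starts, 11.3% held TATAAA and 16.1% CAGCTG, the sequences shown above for Mybpc1. Neither match lay under a footprint in either replicate, although the site held 4 footprints in each. The 2 internal coding starts of Mybpc1 had no peak in either list.

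Mybph had a weak promoter site (chr1:134193141-134193462, centred 146 bp upstream), with 2.01 in replicate 1 and 1.64 in replicate 2 (mean 1.82 ± 0.263, SD, n = 2). Its CAGCTG lay under a footprint in replicate 1 alone. Replicate 1 had 6 footprints in this site and replicate 2 had 1. A further peak in intron 2 (chr1:134193881-134194067) had 0.877 in replicate 2 alone.

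All 5 genes with a shared promoter site had a footprint of each replicate there, beside 99.4% of all genes with such a site, so this count says little about them. Across their 8 shared promoter sites there were 31 footprints in replicate 1 and 24 in replicate 2. Of those of replicate 1, 64.5% were overlapped by a footprint of replicate 2, and over all shared promoter sites the share was 73.6%. Of the 8 sites, 3 are those counted for Myom1 at Myl12a and Myl12b, away from its full-length start.

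Mybpc3, the cardiac form, and Myom3 were the 2 genes with no peak at their start. Of the 10 cardiac markers, Myh6, Tnnt2 and Nkx2-5 likewise had no promoter peak in either list. Nppa, Tnni3, Myl7 and Tbx20 had no shared strict site but a permissive peak in both replicates: 0.622 and 0.751 for Nppa, 1.484 and 1.196 for Tnni3, 1.23 and 1.01 for Myl7, and 0.516 and 0.419 for Tbx20, in replicates 1 and 2. The other 3 had a shared strict site, Nppb with 0.998, Ryr2 with 1.01 and Myl4 with 11.7 (means of the replicates), and that of Myl4 also lies within 1 kb of a start of Cdc27.

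Away from promoters, sites whose midpoint lay over 1 kb from every coding start went to the nearest such start within 50 kb. Each of the 7 genes had at least 1 shared distal site, beside 50.3% of all protein-coding genes, and together they had 23, of which 19 lay inside the gene they were assigned to. Myom3 had 8, Mybph 4, Myom2 and Mybpc2 3 each, Mybpc1 and Mybpc3 2 each, and Myom1 1 (4 with starts of all annotated transcripts, which leave Myom2 1); the median over all genes was 1 and the 90th percentile 4. As many distal sites as Myom3 or more were found at 2.9% of all genes. Genes differ in how much sequence lies nearest to them, and per 100 kb of that sequence Mybph had 16.6 sites, Mybpc2 14.2, Myom3 12.9, Myom2 5.58, Mybpc3 5.34, Myom1 1.78 and Mybpc1 1.70. The 7 genes together had 6.18 per 100 kb, and all genes 2.72. This difference was not tested, since the members were chosen as known muscle genes and are not a sample of genes.

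**Figure D2:**
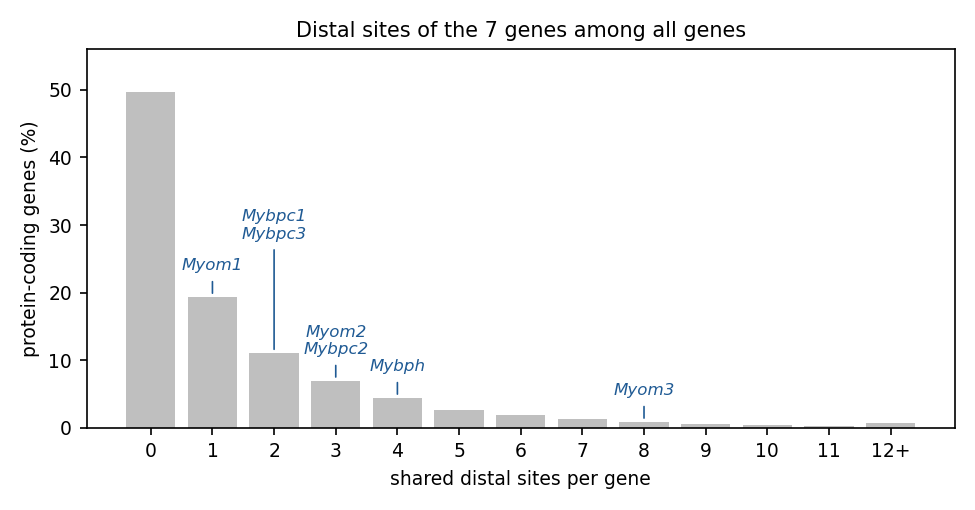
Share of all protein-coding genes (grey bars, per cent) by number of shared distal sites per gene, with the 7 genes named above the bar they belong to. Genes with no distal site make up 49.7%, and Myom3, at 8 sites, is the only one of the 7 beyond the 90th percentile of 4.

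**Figure D3:**
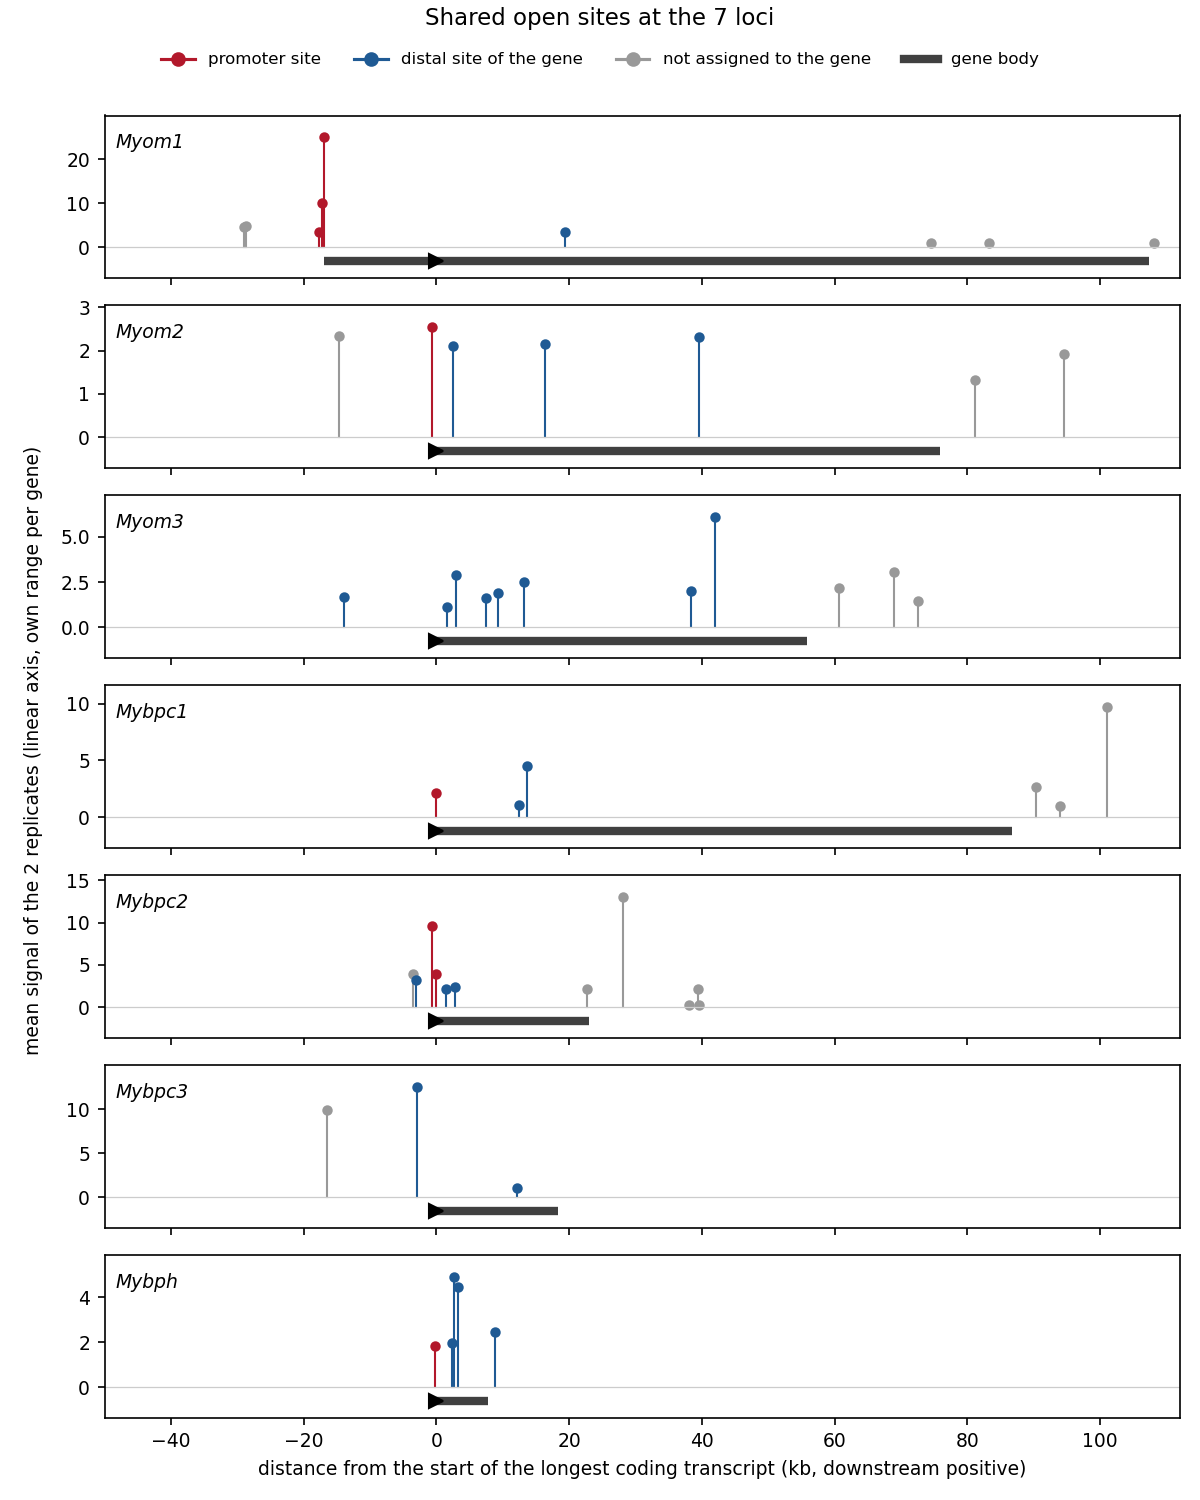
Shared sites at the 7 loci, by distance from the start of the longest coding transcript (horizontal axis, kb) and mean signal of the 2 replicates (vertical axis, linear, with its own range for each gene); red marks promoter sites, blue distal sites of the gene, grey sites assigned to other genes or to none, and the bar with an arrowhead the gene body and the start. The red sites of Myom1 stand 16.9 kb or more to the left of its arrowhead, and Myom3 has blue sites along its body with none at its start.

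Myom3, with no peak at its start, had the most distal sites, 7 of them in its own introns. The strongest (chr4:135801541-135801760) lay in intron 27 of 36, 41.9 kb downstream of the start, with 6.44 in replicate 1 and 5.72 in replicate 2, above 95.5% of all shared distal sites. It held a CTCF match, both kinds of E-box and the sequence of ERR and ROR receptors (AAGGTCA), all under footprints of both replicates. Its CACCTG lies inside the CTCF match. The next strongest lay in intron 2 (chr4:135762601-135762780) with 3.11 and 2.71, and in intron 7 (chr4:135772761-135772980) with 2.85 and 2.16, in replicates 1 and 2. Both held CAGCTG, and in intron 7 a copy of it lay under footprints of both replicates.

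The other 5 distal sites of Myom3 were weaker, between 1.09 and 2.01 in mean signal. The weakest, 1.53 kb inside the gene (chr4:135761114-135761386), had 1.18 and 1.00 in replicates 1 and 2 and held TGACGTCA, the CREB sequence, under footprints of both. It is the open site nearest to the start, and it counted as a promoter site with a window of 2500 bp. A site in intron 24 (chr4:135798001-135798220), with 1.84 and 2.19, was centred 79 bp from the start of an annotated Myom3 transcript with a retained intron, and counted as a promoter site when starts of all annotated transcripts were used. The only one outside the gene body (chr4:135745661-135745840, 1.75 and 1.56) lay 14.0 kb upstream in an intron of Il22ra1, a receptor subunit for interleukin 22. Beyond the 3′ end of Myom3, 3 further shared sites with mean signals of 1.47 to 3.07 were nearest to Srsf10 and were not counted.

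Myom1 had 1 shared distal site, in intron 5 of 37 (chr17:71038821-71039080), 19.4 kb from its nearest coding start. Its signal was 3.94 in replicate 1 and 2.80 in replicate 2, above 84.4% of all shared distal sites, and well above the site at the full-length start. The pair of CAGCTG E-boxes shown above lies 61 bp apart, and each was covered by a footprint in both replicates. The 39 bases that begin at each E-box are identical at 33 positions (84.6%). Of all shared distal sites, 25.3% held at least 1 CAGCTG in their central 150 bp. A pair of weaker shared sites, in introns 22 and 25, lay over 50 kb from every coding start and went to no gene.

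Myom2 had 3 distal sites of nearly equal strength in its introns. Intron 13 (chr8:15097081-15097260) had 2.60 and 2.01, intron 6 (chr8:15073921-15074120) 2.29 and 2.00, and intron 1 (chr8:15060021-15060200) 2.73 and 1.48, in replicates 1 and 2. The site in intron 1 differed most between the replicates: with the shift of all sites removed its log2 ratio of replicate 2 to replicate 1 was -0.74, and 2.1% of all shared sites differed by more. It was centred 79 bp from the start of a retained-intron transcript of Myom2 and held CAGCTG and GGAATG, neither under a footprint.

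The 4 myosin-binding protein genes had 11 shared distal sites and the 3 myomesin genes 12. Mybph, the shortest gene of the set at 7.8 kb, had 3 of its 4 side by side in intron 3. The strongest (chr1:134196021-134196340) had 5.62 in replicate 1 and 4.16 in replicate 2, and its neighbour (chr1:134196561-134196760) had 5.63 and 3.33; their means stood above 92.6% and 91.1% of all shared distal sites. The neighbour had a centred log2 ratio of -0.62, with 4.7% of all shared sites differing by more. In the strongest, shown above, both copies of CACCTG lay under footprints of both replicates, while its 2 copies of CAGCTG lay under none. The fourth (chr1:134202141-134202320, 2.78 and 2.09) lay in a UTR exon of Adora1, the adenosine A1 receptor gene.

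Mybph also had 4 distal peaks in the strict list of replicate 2 alone, with signals of 0.711 to 1.203. In replicate 1 the lowest false discovery rate at these places was between 0.00375 and 0.00731, below the limit of 0.05 at which values are listed.

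Mybpc1 had 2 shared distal sites, both in intron 1 and far from its start. The stronger (chr10:88591221-88591400, 13.7 kb downstream) had 5.41 in replicate 1 and 3.58 in replicate 2, above 91.2% of all shared distal sites and higher than its own promoter site in both replicates. A GC box there lay under footprints of both replicates. The weaker (chr10:88592421-88592620) had 1.36 and 0.864 and held CAGCTG and a CArG box, neither under a footprint.

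Mybpc2 had 3 distal sites close to its start. The strongest (chr7:44527581-44527760) had 3.27 in replicate 1 and 3.22 in replicate 2 and lay 3.02 kb upstream inside Spib, a gene of the ETS family of factors known from lymphoid cells, with its CTCF match under footprints of both replicates. Sites in intron 4 (chr7:44521821-44522020) and intron 1 (chr7:44523101-44523400) had 2.37 and 2.47, and 2.23 and 2.17, in replicates 1 and 2. The last intron of Mybpc2 also held a shared site (chr7:44501821-44501980), with 2.395 and 1.894 in replicates 1 and 2. It was nearest to Fam71e1 and was not counted. In its last 2 introns Mybpc2 had 3 further strict peaks in replicate 2 alone, with signals of only 0.246 to 0.293. Their lowest false discovery rates in replicate 2 were between 1.89e-16 and 2.86e-16, while replicate 1 had no listed value at any of them.

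Mybpc3 had the strongest distal site of the set and nothing else of that height. The site chr2:91115161-91115320, 2.90 kb upstream of the start, had 13.6 in replicate 1 and 11.4 in replicate 2, above 99.3% of all shared distal sites. It lies in the last coding exon of the neighbouring gene Spi1, which encodes PU.1, a factor of myeloid cells, and its CTCF match lay under footprints of both replicates. Spi1 itself had a promoter signal of 1.82 and 1.69 in replicates 1 and 2. The only site inside Mybpc3, in intron 22 (chr2:91130166-91130340), had 1.13 and 0.924, above 24.3% of all shared distal sites.

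**Figure D4:**
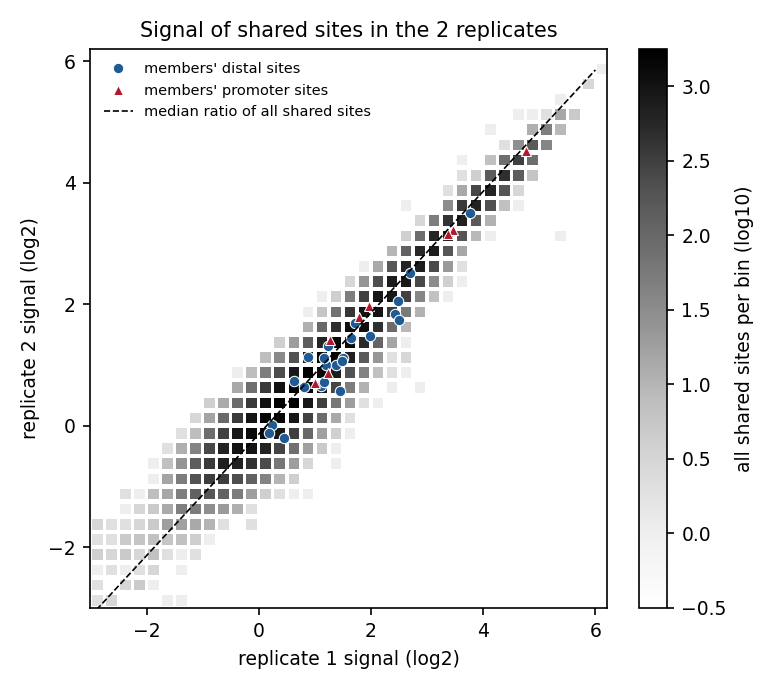
Signal of every shared site in replicate 2 against replicate 1 (both log2), with all sites as grey bins shaded by number of sites (log10), the distal sites of the 7 genes as blue circles, their promoter sites as red triangles, and the median ratio of all shared sites as a dashed line. The blue circles run from a centred log2 ratio of -0.74, in Myom2 intron 1, to 0.39, in Myom3 intron 24.

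Strict distal peaks of a single replicate were also found at 3 more genes. Myom3 had a strict peak of 0.897 in intron 29 (chr4:135803464-135803533) in replicate 1 alone, and Myom1 had 0.954 in intron 5 (chr17:71039981-71040200), also in replicate 1 alone. Upstream of Mybpc1, in intergenic DNA, replicate 2 alone had 0.538 (chr10:88635065-88635100). The permissive lists added between 0 and 5 distal sites per gene with no strict peak in either replicate, the most at Mybpc1 and none at Mybpc2. The highest of them reached 1.19, in replicate 1 at Myom2. Most were found in 1 replicate alone, and only 2 at Mybpc1 and 1 each at Myom2 and Myom3 were shared. Counted as shared distal sites, the largest gain with the permissive list was at Mybph, from 4 to 8.

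Across the 23 distal sites the median signal was 2.60 in replicate 1 and 2.16 in replicate 2, and over all shared distal sites it was 1.65 and 1.47. All 23 held a footprint of each replicate, beside 95.5% of all shared distal sites. There were 3.48 footprints per site in replicate 1 and 2.96 in replicate 2, against 2.93 and 2.71 over all shared distal sites, and 71.2% of those of replicate 1 were overlapped by a footprint of replicate 2, against 66.7% over all.

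The E-box CAGCTG lay in the central 150 bp of 7 of the 23 distal sites, beside 25.3% of all shared distal sites: 4 in Myom3 and 1 each in Myom1, Myom2 and Mybpc1, with none in Mybpc2, Mybpc3 or Mybph. Counted over whole sites there were 11 matches, of which 5 lay under footprints of both replicates (45.5%), against 3993 of 16980 (23.5%) over all shared distal sites. CACCTG lay in the central 150 bp of 6 of the 23 distal sites, beside 12.1% of all shared distal sites. Over whole sites, 4 of its 7 matches lay under footprints of both replicates (57.1%), against 35.9% over all. Of the 4, 2 lie inside a CTCF match, in Myom3 and Mybpc2. All 3 CTCF matches were covered in both replicates, beside 90.5% of CTCF matches over all shared distal sites. These shares rest on 11, 7 and 3 matches and were not tested.

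Of the motifs apart from E-boxes, CTCF, SP and KLF, TEAD and CCAAT sequences were each held by the central 150 bp of 3 of the 23 sites. Over all shared distal sites the shares were 14.1%, 11%, 10.1% and 16.6%. The response element of glucocorticoid and androgen receptors (ACANNNTGT) was held by 2, beside 4.24%. A CArG box was held by 1, beside 0.665%. In this central window MEF2, AP-1 (TGANTCA), CREB, and ERR and ROR sequences were held by none, beside 0.558%, 7.91%, 0.428% and 2.65%. The CREB and AAGGTCA matches named above for Myom3 lay outside the window. An AP-1 match in Mybph intron 3 (chr1:134196561-134196760), under a footprint of replicate 1 alone, also lay outside it. So did a CArG box in Myom3 intron 5 (chr4:135768921-135769100).

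The genes known to work with these proteins were counted for comparison. Of 15 genes of the M-band and its partners, 13 had a shared promoter site (86.7%), with the highest signals at Nbr1 and Sqstm1, which encode selective autophagy receptors that meet titin at the M-band, and at Ckm, the muscle creatine kinase. Ckm had 13.1 in replicate 1 and 8.99 in replicate 2; Nbr1 had 16.45 and 11.98 and Sqstm1 16.4 and 11.2, at sites also within 1 kb of a start of Brca1 and of Mgat4b. Lrrc39 had no strict promoter peak. Of 15 genes of the thick filament and its assembly, 8 had a shared promoter site (53.3%). Over all protein-coding genes the share was 62.3%, and the difference between the 2 lists of 15 genes was not tested. The highest signals were at the chaperone gene Hsp90aa1 (16.2 and 14.9), at Mylpf, the fast regulatory light chain (11.7 and 10.1, at a site also within 1 kb of a start of Tbc1d10b), and at Mylk2, the skeletal myosin light chain kinase (6.68 and 4.84). The myosin heavy chain genes Myh1, Myh2 and Myh3 had no strict promoter peak. Myh1 had a permissive peak of 0.516 in replicate 1 and 0.532 in replicate 2. Myh2 and Myh3 had none in either list, like Myom3 and Mybpc3. The median number of shared distal sites per gene was 3 in the 7 genes, 1 in the M-band partners and 3 in the thick filament list, against 1 over all genes.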

How the data were processed

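DNase-seq libraries of 2 biological replicates of 1 group were analysed. Per the labels, all files are on mm10; the aligner, the peak caller and the footprint caller were not given in the sources used here. For each library the authors deposited 2 peak lists with a signal per peak, whose scaling is not stated. The list with fewer peaks is here called strict and the other permissive. Also deposited were a list of footprints at a false discovery rate of 0.01 and per-base q-values (FDR) of the cut rate, listed only below 0.05. Replicates were deposited separately and not pooled. The reference is of C57BL/6J, so alleles of the CAST parent were read against another strain's genome; the effect of this on signal was not tested.

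From these files, strict peaks overlapping by at least 1 bp were merged, and merged sites with a peak of each replicate were called shared; a site's signal in a replicate is its strongest peak there. Starts were those of protein-coding transcripts of protein-coding genes in GENCODE M21. A promoter site had its midpoint within 1 kb of a start, and a distal site went to the nearest start within 50 kb. A footprint counted for a site or a motif match where they had at least 1 base in common, and 19 motifs were sought as exact matches on both strands of the RefSeq copy of GRCm38. Ratios of replicate 2 to replicate 1 had the median log2 ratio of the shared sites subtracted. Python 3.11.15, numpy 2.4.6 and pysam 0.24.0 were used, and assignment was checked on planted peaks. With 1 group there is no test between groups, and values are given with both replicates and their SD. Read depth is unknown, so no counting intervals are given. For each gene the strongest promoter site and the 3 strongest distal sites are named, and of each comparison list the 3 highest promoters and the first 3 without a promoter peak. The members, lists and motifs were chosen with earlier results of these data known. The alternatives covered the peak list, peak strength, overlap, each replicate alone, the starts, the promoter window, the assignment distance and the motif window. A few items of the lists and motifs are not reported here.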

Additional observations from a re-analysis of the deposited data

How the results depend on the processing

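The number of the 7 genes with a shared promoter site was 5 with either replicate alone, with a reciprocal overlap of 50%, with the stronger 50% of peaks and with the permissive list. It was 4 with a promoter window of 500 bp, which drops Myom2, and 6 with a window of 2500 bp or with starts of all annotated transcripts, which both add Myom3. Curated RefSeq starts, an alternative chosen after seeing the data, gave 4, because RefSeq starts Myom1 at its full-length start. The 23 distal sites became 33 with the permissive list, 19 with the stronger 50% of peaks, 20 and 26 with assignment within 20 and 100 kb, and between 25 and 31 with 1 replicate left out. Distal sites with CAGCTG numbered 5 to 10. Counts per gene moved more: without replicate 1, Mybph had 8 distal sites and Mybpc2 had 6, against 4 and 3 with both, and without replicate 2 Myom1 had 2, against 1. With the permissive list Mybph had 8, Mybpc1 5 and Myom1 2. With starts of all annotated transcripts Myom1 had 4 distal sites and Myom2 1, against 1 and 3, which turns their order. With these starts Mybpc1 and Mybpc3 had 1 each, as they had with the stronger 50% of peaks, against 2. Assignment within 100 kb gave Myom1 2 and Myom2 5. With a window of 500 bp, the mean promoter signal of Mybpc2 was 3.92. Mybpc3 had no promoter site under any of these settings. No paired analysis was possible because the study has 1 group. Read depth is unknown, so the absence of a peak at Myom3 and Mybpc3 means only that none was called at this depth.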
